A study of Mus musculus with 9 samples.

Results

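Ppia and Hsp90ab1 are the protein folding genes among the 15 reference genes that the array design carries, beside 59709 transcript probes for long non-coding and other RNAs. The 2 members were found by the RefSeq identifier of their probe, NM_008907.1 for Ppia and NM_008302.3 for Hsp90ab1. Each reference gene has 1 probe printed as 20 spots on every array, so each array measured both genes 20 times.

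Ppia encodes cyclophilin A, an abundant cytosolic peptidyl-prolyl isomerase that helps proteins fold by turning the bond before a proline, and that is the target of the drug cyclosporin A. Hsp90ab1 encodes the constitutive cytosolic form of the HSP90 chaperone, which uses ATP and a set of co-chaperones to mature kinases, steroid receptors and other client proteins. Both genes are active in nearly all cells, and Ppia is often used to normalise the levels of other transcripts. The stress-inducible HSP90 form, HSP70, the co-chaperones and the other cyclophilins were among 26 protein folding genes looked for. Of these, 0 could be matched to a probe by name or identifier, so the wider pathway was not analysed here.

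The study followed primary cortical neurons of E15 Swiss albino mouse embryos through maturation and through oxygen-glucose deprivation (OGD), a culture model of ischemia in which oxygen and glucose are withdrawn together. The maturing cultures stood for 2, 4, 6 or 8 days in Neurobasal medium with B27 supplement, and each gave 1 array, named here by its day. The OGD cultures were day 6 neurons held at 0.1% oxygen in a glucose-free salt solution for 2, 4, 6 or 8 hr and then returned to oxygen for 24 hr in medium without B27, and each duration gave 1 array. The control, 0 hr OGD, went through the same handling, including the medium without B27, with no deprivation. RNA was depleted of ribosomal RNA, copied with random primers, labelled with Cy3 and hybridised to 9 single-colour arrays. The methods state a pool of 4 separate experiments per array for Day 2 to Day 8 and for 0, 2 and 4 hr OGD, and no such pool is stated for 6 and 8 hr. With 1 array per condition there is no replicate error, and no test between conditions was made. The error given below is the standard deviation (SD) over the spots of 1 array, which is technical and smaller than the spread between cultures can be.

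The arrays were not alike in brightness, and this touches both genes. Between 19851 (8 hr OGD) and 42780 (Day 4) probes per array were well above background. On Day 4, 54.4% of the negative control spots were themselves well above background, against 0.833 to 9.58% on the other arrays. Day 2 and Day 4 were scanned as 1 group and the other 7 arrays as another, so Day 6 and Day 8 relative to Day 2 also compare scans. None of 15 cell type markers could be matched to a probe, so the neuronal label was not checked here. In pooled cultures, fewer cells carrying a transcript and less of it per cell cannot be told apart.

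Both genes were measured far above background. Every spot was well above background on all 9 arrays and 0 were saturated. The scanner software marked 11 of the Ppia spots and 8 of the Hsp90ab1 spots as outliers, which left 17 to 20 spots per array for Ppia and 18 to 20 for Hsp90ab1. Before any normalization the spots of an array varied by 1.85 to 6.19% (coefficient of variation) for Ppia and by 2.54 to 6.07% for Hsp90ab1. The software's own modelled error of 1 spot was larger, at 0.144 on the log2 scale for both. Spot deviations were partly shared between arrays. Over the 36 pairs of arrays, the deviations of Ppia spots at the same position had a median correlation of 0.34, with 35 pairs positive, and for Hsp90ab1 the median was 0.096 with 21 pairs positive. The SD of an SLR, the signal log ratio or difference in log2 signal between 2 arrays, was therefore taken over positions.

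The level of Ppia after quantile normalization was 13.61 (SD 0.064, 20 spots) on Day 2, 13.64 (SD 0.092, 20 spots) on Day 4, 13.82 (SD 0.086, 20 spots) on Day 6 and 13.97 (SD 0.066, 18 spots) on Day 8, in log2 units. On the OGD arrays it was 14.50 (SD 0.069, 18 spots) at 0 hr, 13.28 (SD 0.084, 19 spots) at 2 hr, 13.48 (SD 0.033, 17 spots) at 4 hr, 13.70 (SD 0.057, 18 spots) at 6 hr and 13.17 (SD 0.044, 19 spots) at 8 hr. The 0 hr OGD array was the highest of the 9 and the 8 hr array the lowest, a range of 1.33. The spots of 0 hr OGD lay between 14.34 and 14.63 and did not overlap those of Day 8, the next array in order, at 13.85 to 14.07. Every other pair of neighbours in the order overlapped. Of those neighbouring pairs, 6 hr OGD with Day 4 and Day 4 with Day 2 differed by less than their pooled spot SD. Ppia stood in the 99.1 to 99.6 percentile of all probes, from rank 215 at 0 hr OGD to rank 564 at 8 hr.

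Hsp90ab1 had a level of 9.61 (SD 0.060, 19 spots) on Day 2, 9.73 (SD 0.084, 20 spots) on Day 4, 9.84 (SD 0.095, 20 spots) on Day 6 and 10.01 (SD 0.053, 18 spots) on Day 8. Its OGD levels were 10.24 (SD 0.064, 19 spots) at 0 hr, 10.23 (SD 0.082, 20 spots) at 2 hr, 10.19 (SD 0.039, 18 spots) at 4 hr, 10.10 (SD 0.047, 18 spots) at 6 hr and 10.30 (SD 0.087, 20 spots) at 8 hr. With quantile normalization all 5 OGD arrays were above all 4 days, and the whole range was 0.69, from Day 2 to 8 hr OGD. The spot ranges of all neighbours in the order overlapped. The arrays at 8, 0, 2 and 4 hr OGD followed each other by less than their pooled spot SD. Hsp90ab1 stood in the 94.5 to 95.9 percentile of all probes. Before normalization the order differed. The 8 hr OGD array, with a signal of 774, was then below Day 4, Day 6 and Day 8, at 956, 864 and 1051. The levels of the 2 genes come from different probes and were not set against each other.

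**Figure D1:**
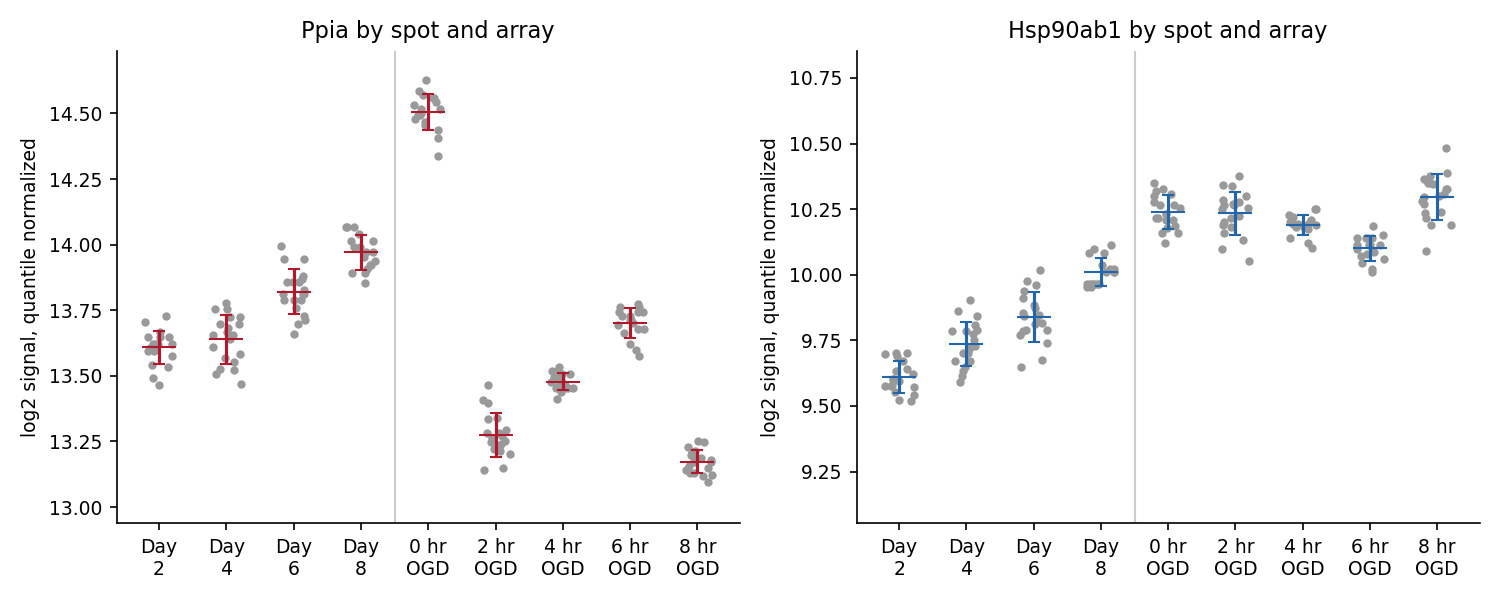
Quantile-normalized log2 signal (vertical axis) of Ppia (left) and Hsp90ab1 (right) on the 9 arrays (horizontal axis). Grey points are single spots without outliers, and coloured bars the mean and SD over spots. Both axes span the same number of log2 units. Ppia peaks at 14.50 on the 0 hr OGD array and is at 13.17 to 13.70 after deprivation, while Hsp90ab1 lies between 10.10 and 10.30 on all 5 OGD arrays.

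Over maturation both genes were somewhat higher on each later day than on Day 2 with quantile normalization, though Ppia on Day 4 by less than its SD. The SLR of Ppia relative to Day 2 was 0.030 (SD 0.074, 20 positions) on Day 4, 0.21 (SD 0.10, 20 positions) on Day 6 and 0.36 (SD 0.078, 18 positions) on Day 8. For Hsp90ab1 it was 0.12 (SD 0.11, 19 positions), 0.23 (SD 0.12, 19 positions) and 0.40 (SD 0.087, 17 positions). The spots of Day 2 and Day 8 did not overlap for either gene, while those of Day 4 and Day 6 overlapped with Day 2 for both. The largest of these differences, on Day 8, amounts to 1.29-fold for Ppia and 1.32-fold for Hsp90ab1. Their size and order moved with the scaling. With each array scaled to its 75th percentile, Ppia was at 0.70 on Day 6 and 0.57 on Day 8, and Hsp90ab1 at 0.78 and 0.80.

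Neither gene passed an SLR of 1 in either direction, the threshold the study used for differential expression. Among all probes well above background on both arrays, the share past it was 34.3% on Day 4, 9.80% for Day 6 and 10.5% for Day 8. The median SLR of those probes was -0.37, 0.081 and 0.013 on the 3 days. With quantile normalization Ppia had a higher SLR than 67.5, 59.7 and 74.5% of them, and Hsp90ab1 than 71.1, 60.7 and 76.3%. On Day 4 this place turned with the scaling. The SLR minus the median SLR of all probes was then 0.40 for Ppia and 0.49 for Hsp90ab1. With the 75th percentile or no normalization it was -0.26 and 0.00089. On Day 6 and Day 8 both genes stayed above the median in these scalings. The SLR of Ppia minus that of Hsp90ab1 was -0.094, -0.016 and -0.037, in each case within the combined SD of 0.13, 0.16 and 0.12. Without normalization the difference between the genes was -0.26, -0.074 and -0.23, so that Hsp90ab1 was then above Ppia by more than the combined SD on Day 4 and Day 8. Within the second scan, Day 8 was above Day 6 by 0.15 (SD 0.10, 18 positions) for Ppia and 0.17 (SD 0.067, 18 positions) for Hsp90ab1, with overlapping spots. With the 75th percentile the sign turned for Ppia, at -0.13, and Hsp90ab1 was at 0.021. The Day 4 value had no settled sign. When each array was scaled to its 75th percentile, Day 4 relative to Day 2 was -0.74 for Ppia and -0.49 for Hsp90ab1, and with no normalization it was 0.39 and 0.64.

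On the OGD arrays the genes differed. Ppia was lower after OGD than at 0 hr on all 4 arrays. With quantile normalization Hsp90ab1 lay close to its 0 hr level on all of them. With the 75th percentile or no normalization Hsp90ab1 was farther from that level at 2, 4 and 8 hr. Relative to 0 hr OGD the SLR of Ppia was -1.23 (SD 0.096, 18 positions) at 2 hr, -1.03 (SD 0.066, 17 positions) at 4 hr, -0.80 (SD 0.040, 17 positions) at 6 hr and -1.33 (SD 0.054, 17 positions) at 8 hr. These are 2.34-, 2.04-, 1.74- and 2.52-fold lower signals, and at no duration did the spots overlap those at 0 hr. The differences did not follow the duration of OGD. The 8 hr array was the farthest from the control in every scaling tried, and the nearest was 6 hr with quantile normalization but 4 hr with no normalization or relative to the other reference genes. From 6 to 8 hr Ppia was lower by an SLR of -0.53 (SD 0.047, 17 positions), with no overlap of spots, and by -1.12 with the 75th percentile or -1.27 with no normalization.

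Hsp90ab1 had an SLR of -0.0056 (SD 0.088, 19 positions) at 2 hr, -0.050 (SD 0.070, 17 positions) at 4 hr, -0.14 (SD 0.061, 18 positions) at 6 hr and 0.057 (SD 0.085, 19 positions) at 8 hr. Its spots overlapped those of 0 hr OGD at each duration, and the 6 hr value alone was larger than its SD. The SLR of Ppia minus that of Hsp90ab1 was -1.22, -0.98, -0.66 and -1.39 at 2, 4, 6 and 8 hr, against combined SDs of 0.073 to 0.13. Scaling by 1 factor per array cancels in this difference between the genes. Taken on the signals without normalization, it was -0.77, -0.52, -0.27 and -0.92.

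With quantile normalization Ppia passed an SLR of -1 at 2, 4 and 8 hr and not at 6 hr, and Hsp90ab1 passed the threshold at none. Of all probes, 20.5%, 15.4%, 7.76% and 27.4% passed it in either direction at the 4 durations. In the downward direction the shares were 8.20%, 6.94%, 3.98% and 9.63%. With quantile normalization, only 4.68, 6.38, 5.75 and 3.17% of all probes had a lower SLR than Ppia at these durations. At 6 hr the SLR of Ppia minus the median of all probes was then -0.85, and -0.30 with the 75th percentile or no normalization. With quantile normalization 47.9, 47.5, 34.1 and 46.8% of probes were below Hsp90ab1, near the middle of the distribution except at 6 hr. The SLR of Hsp90ab1 minus the median of all probes was then -0.052, -0.048, -0.19 and -0.10. With the 75th percentile or no normalization it was -0.47, -0.33, -0.038 and -0.46. The median SLR of all probes was 0.047, -0.0022, 0.050 and 0.16. All 4 comparisons share the single 0 hr array, on which Ppia was at its highest.

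The processed signals before normalization show how much of this rests on the scaling of the arrays. Ppia read 28300 at 0 hr OGD and 7751, 17024, 14106 and 5858 at 2, 4, 6 and 8 hr, and Hsp90ab1 read 1979, 923, 1703, 1187 and 774. Both genes were thus dimmer on every deprived array before normalization, and the 0 hr array was among the brightest, with 30759 probes well above background. Ppia stayed below 0 hr at each duration in every scaling tried, but the size of the difference moved. Its SLR at 4 hr relative to the other reference genes, -0.059, was smaller than its SD over positions, 0.066. Its SLRs were -1.24, -0.86, -0.20 and -1.32 with the 75th percentile and -1.05, -0.69, -0.22 and -1.16 with the arrays centred on the median of the probes well above background on all 9, a scaling chosen after seeing the data. At 4 hr the SLR therefore passed -1 with quantile normalization and not with these. Hsp90ab1 was near 0 at every duration with quantile normalization, whereas with the 75th percentile it was -0.48, -0.34, 0.065 and -0.40. With no normalization Ppia also passed -1 at 6 hr and not at 4 hr, at -0.73, and Hsp90ab1 passed it at 2 hr, with -1.10, and at 8 hr, with -1.36.

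**Figure D2:**
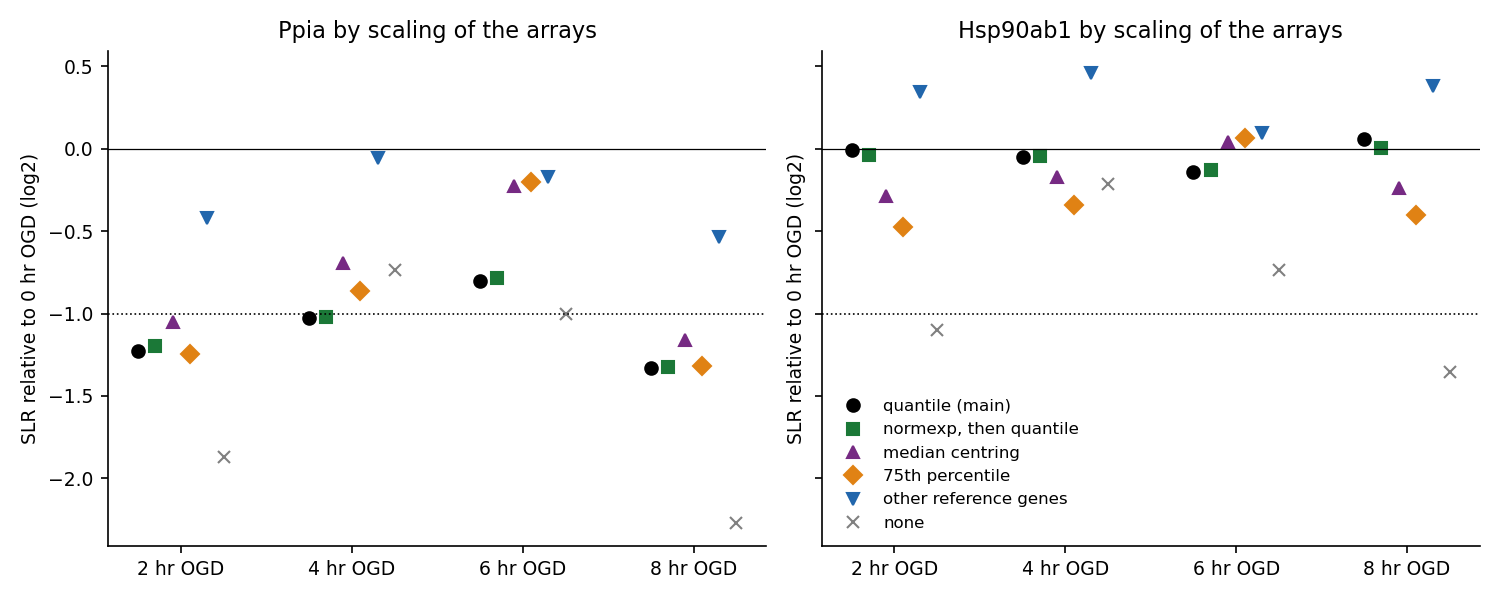
SLR relative to 0 hr OGD (vertical axis, log2) of Ppia (left) and Hsp90ab1 (right) at 4 durations of OGD (horizontal axis), with 1 symbol for each way of scaling the arrays. The dotted line marks an SLR of -1. All Ppia symbols lie below 0, between -0.059 and -2.27, and those of Hsp90ab1 lie on both sides of it, between -1.36 and 0.46.

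Among the reference genes with quantile normalization, Ppia lay at or near the bottom after deprivation and Hsp90ab1 above the middle. Of the 15 reference genes, 13 were well above background on all 9 arrays, which leaves 11 for comparison. At 2 and 8 hr OGD, 0 of the 11 had a lower SLR than Ppia. At 4 and 6 hr 1 gene did, Gapdh at -1.06 and Nono at -0.89, both named after their values were seen. Hsp90ab1 was above 7 of the 11 at each duration. The median of the 11 was itself below 0, at -0.52, -0.55, -0.27 and -0.50. In a separate scaling, in which the signals were left without quantile normalization and the median difference of the 11 was subtracted, Ppia was at -0.42, -0.059, -0.17 and -0.54 and Hsp90ab1 at 0.35, 0.46, 0.097 and 0.38. Ppia passed an SLR of -1 at none of the durations in that scaling. At 4 hr it was then closer to the median of the 11 than its SD over positions, 0.066. Its place among the 11 was not ranked in that scaling. Over maturation, with quantile normalization, both genes were above all 11 on Day 4, above 8 on Day 6 and above 9 on Day 8.

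Across the 9 arrays the range of Ppia, 1.33, was the third widest of the 13 reference genes. Among the 5 OGD arrays it was second, and over the 4 days, at 0.36, it was 11th. Hsp90ab1, at 0.69, was 12th over all arrays and had the narrowest range of the 13 among the OGD arrays, 0.20. Ranges and places here are with quantile normalization, and other scalings were not ranked. With the 75th percentile the SLRs of Hsp90ab1 relative to 0 hr OGD ran from -0.48 to 0.065. With no normalization they ran from -0.22 to -1.36, so its OGD range was wider than 0.20 in both. Of 17431 probes well above background on all 9 arrays, 45.9% had a smaller range than Ppia and 5.08% a smaller range than Hsp90ab1. The median range of these probes was 1.39, close to that of Ppia and wider than that of Hsp90ab1.

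**Figure D3:**
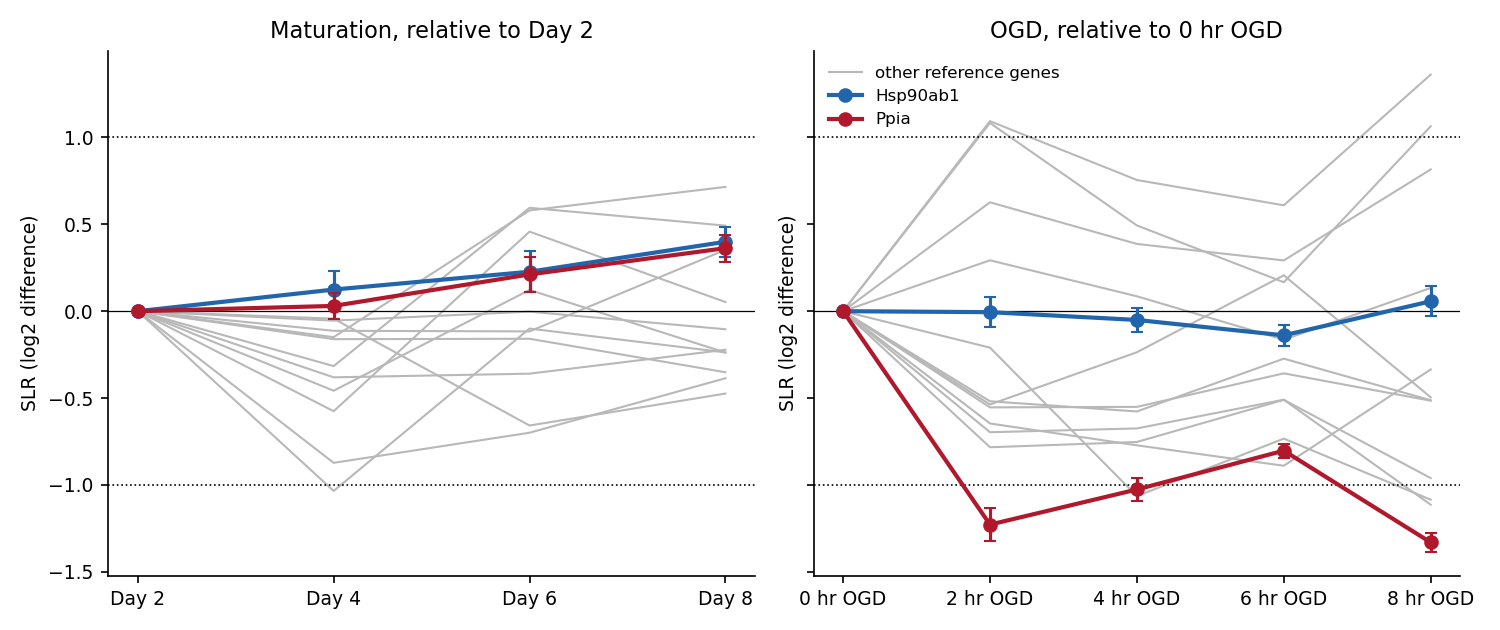
SLR (vertical axis, log2 difference) relative to Day 2 over maturation (left) and relative to 0 hr OGD over deprivation (right). Red is Ppia and blue Hsp90ab1, with the SD over spot positions, grey lines are the 11 other reference genes, and dotted lines mark SLRs of 1 and -1. With quantile normalization the 2 genes are at 0.36 and 0.40 on Day 8 and at -1.33 and 0.057 at 8 hr OGD.

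The reference genes whose levels followed Ppia most closely over the 9 arrays with quantile normalization were Tuba1b and Hprt. Their Pearson correlations were 0.84 for Tuba1b, an alpha-tubulin, and 0.83 for Hprt, a purine salvage enzyme. Of 17430 probes, 1.70 and 1.88% followed Ppia at least as closely. With quantile normalization Hsp90ab1 was closest to Tbp, the TATA-binding protein, at 0.61, and to the transferrin receptor gene Tfrc, at 0.40. These correlations were reached by 15.1 and 36.0% of probes. Taken separately, Tbp correlated with Hsp90ab1 at 0.047 over the 4 days and 0.69 over the 5 OGD arrays. Tfrc was at -0.42 and -0.16, so it followed Hsp90ab1 in neither series alone. Between Ppia and Hsp90ab1 the correlation was -0.084 over the 9 arrays, 0.97 over the 4 days and -0.17 over the 5 OGD arrays. The correlations of Ppia with Gk and G6pd2, named after their values were seen, were larger in size and negative, at -0.92 and -0.86, and with the 75th percentile they were 0.13 and -0.24. All these describe 9 arrays that share their normalization. The values and their order depended on the scaling. With the 75th percentile, Ppia correlated at 0.95 with Tuba1b and at 0.97 with Hprt, and Hsp90ab1 at 0.71 with Tbp and at 0.88 with Tfrc. For the pair of Ppia and Hsp90ab1 it was 0.74, and with no normalization 0.78. In these 2 scalings Rpl13a, named after its values were seen, was closer to Ppia than Tuba1b was. Rpl13a was at 0.954 and 0.975, and Tuba1b at 0.950 and 0.957. Tfrc, and not Tbp, was closest to Hsp90ab1 with the 75th percentile.

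The maturing cultures give further undeprived references, since Day 6 is the age at which deprivation began and Day 8 follows it. The 0 hr control was itself above them. Ppia was higher at 0 hr OGD by 0.68 (SD 0.097, 18 positions) relative to Day 6 and by 0.53 (SD 0.059, 17 positions) relative to Day 8. Hsp90ab1 was higher by 0.40 (SD 0.074, 19 positions) and 0.23 (SD 0.071, 18 positions). None of these 4 comparisons had overlapping spots, and all stayed above 0 in every scaling tried, but their size moved. Relative to Day 6, Ppia at 0 hr OGD was higher by 0.23 with the 75th percentile, 0.18 with median centring, 0.040 relative to the other reference genes and 1.04 with no normalization. Over the same scalings Hsp90ab1 ran from 0.20 to 1.20. The 0 hr control differs from Day 6 and Day 8 in culture age (day 6 plus 24 hr), in its handling and in its medium without B27, which cannot be told apart here.

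Relative to Day 6 the SLR of Ppia was -0.54 (SD 0.045, 19 positions) at 2 hr, -0.34 (SD 0.090, 17 positions) at 4 hr, -0.12 (SD 0.099, 18 positions) at 6 hr and -0.65 (SD 0.10, 19 positions) at 8 hr. Relative to Day 8 it was -0.70 (SD 0.090, 18 positions), -0.49 (SD 0.048, 17 positions), -0.27 (SD 0.045, 18 positions) and -0.80 (SD 0.057, 17 positions). With quantile normalization Ppia was thus lower in 8 of 8 comparisons, by smaller amounts than relative to 0 hr. Its spots overlapped in 1 of the 8, 6 hr with Day 6. Relative to the other reference genes the order of size turned at 2, 4 and 8 hr. At 8 hr Ppia was then -0.86 relative to Day 6, -0.73 relative to Day 8 and -0.54 relative to 0 hr. With the 75th percentile 6 of the 8 were lower and with no normalization 5, the exceptions being at 6 hr and, without normalization, at 4 hr.

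Hsp90ab1 went the other way. Relative to Day 6 its SLR was 0.40 (SD 0.079, 20 positions) at 2 hr, 0.35 (SD 0.10, 18 positions) at 4 hr, 0.26 (SD 0.091, 18 positions) at 6 hr and 0.46 (SD 0.083, 20 positions) at 8 hr, with overlapping spots only at 6 hr. Relative to Day 8 it was 0.22 (SD 0.063, 18 positions), 0.18 (SD 0.066, 16 positions), 0.091 (SD 0.071, 17 positions) and 0.29 (SD 0.082, 18 positions), with overlapping spots at each duration. It was higher in 8 of 8 comparisons with quantile normalization, and lower in 4 of the 8 with the 75th percentile and in 3 with no normalization.

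With quantile normalization neither gene passed an SLR of 1 in either direction against Day 6 or Day 8. Of all probes, 9.55%, 5.40%, 6.30%, 4.14% and 10.7% passed it at 0, 2, 4, 6 and 8 hr relative to Day 6. Relative to Day 8 the shares were 2.90%, 7.94%, 8.04%, 5.47% and 10.7%. Other scalings put some values past the threshold. Ppia relative to Day 6 was -1.02 at 2 hr and -1.09 at 8 hr with the 75th percentile. With no normalization Ppia was 1.04 and Hsp90ab1 1.20 at 0 hr relative to Day 6, and Ppia at 8 hr was -1.23 relative to Day 6 and -1.36 relative to Day 8. The SLR of Ppia minus that of Hsp90ab1 relative to Day 6 was -0.94, -0.69, -0.38 and -1.11 at 2, 4, 6 and 8 hr. Without normalization it was -0.93, -0.68, -0.43 and -1.08. At 0 hr OGD this difference between the genes was 0.28 with quantile normalization and -0.16 without.

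**Figure D4:**
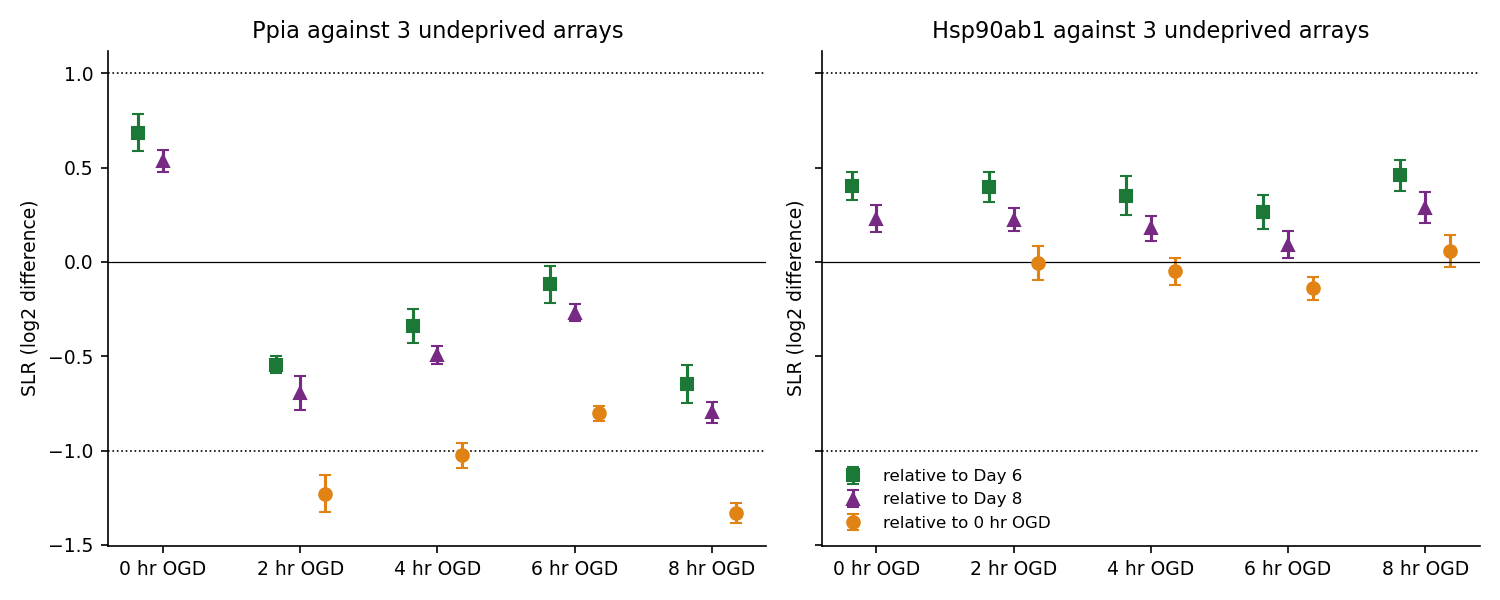
SLR (vertical axis, log2 difference) of Ppia (left) and Hsp90ab1 (right) on the OGD arrays (horizontal axis) relative to Day 6 (squares), Day 8 (triangles) and 0 hr OGD (circles), with the SD over spot positions. Dotted lines mark SLRs of 1 and -1. With quantile normalization Ppia is above Day 6 and Day 8 at 0 hr and below them from 2 hr on, by -0.12 to -0.80. Hsp90ab1 is then above both on all 5 arrays, by 0.091 to 0.46.

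The probe of each gene is 1 sequence, and the 20 spots repeat it. Many processed copies of Ppia exist in the mouse genome, and Hsp90ab1 resembles the gene of the inducible HSP90 form. Whether the probes also bind such transcripts was not tested, because the probe sequences were not used here.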

How the data were processed

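Spot intensity values of all 9 arrays were deposited as read by Feature Extraction (11.0.1.1 per the file headers), which had corrected them for background and added a modelled error and spot flags. The array design refers to the mouse build mm9. Here control spots and spots flagged as outliers were left out, the processed signal of 61194 spots per array was taken as log2 and quantile normalized over the 9 arrays, after the methods, and the spots of a probe were averaged. Probes with repeated spots were well above background where most spots were. RefSeq identifiers were named through a RefSeq gene table, which matched 116 of 123. SLRs were differences of log2 means, with the SD over spot positions measured on both arrays. Shares of probes past an SLR of 1 count probes well above background on both arrays. No test was made, since each condition has 1 array, whose number limits the precision. A further deposited file of the authors' normalized intensity, with 29929 probes, holds 0 of the 15 reference probes. The members and gene lists were chosen with earlier results of these data known. The genes named besides were the 2 reference genes with the highest positive correlation to each member with quantile normalization, with the exceptions stated. The normalization was run on simulated arrays, made as linear rescalings of the Day 6 array with added noise and known changes. Such arrays cannot show which scaling suits the real ones. Alternatives were other scalings, normexp (offset 50, limma 3.58.1 in R 4.3.3) on the median signal because the mean pixel signal was not used here, and other ways to summarise spots. Python 3.11.15 with numpy 2.4.6 and pandas 2.3.3 was used. No sequence is printed, since the probe and protein sequences were not used here.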

Additional observations from a re-analysis of the deposited data

How the results depend on the processing

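The 34 SLRs were recomputed under each alternative, except that 14 could be had with quantile normalization within each series and 32 without Day 4, and a value counted as moved where it shifted by more than its SD over spot positions. Normexp correction, quantile normalization within each series or without Day 4, the median of the spots and the mean of linear signals moved none of those recomputed. With spots averaged before normalization, Ppia at 8 hr relative to 0 hr OGD was -1.41. With outlier spots kept, Hsp90ab1 was 0.073, 0.028 and -0.060 at 2, 4 and 6 hr relative to 0 hr OGD, so that 1 of 4 OGD arrays was below 0 hr and not 3. In the same setting it was 0.31 at 0 hr relative to Day 6. The scaling of the arrays moved most values, and the values it moved were as follows. Scaled to the 75th percentile of each array, the SLR of Ppia was relative to Day 2 -0.74, 0.70 and 0.57 on Days 4, 6 and 8, relative to 0 hr OGD -0.86 and -0.20 at 4 and 6 hr, relative to Day 6 0.23, -1.02, -0.63, 0.026 and -1.09 at 0, 2, 4, 6 and 8 hr, and relative to Day 8 0.36, -0.88, 0.16 and -0.96 at 0, 2, 6 and 8 hr. That of Hsp90ab1 was relative to Day 2 -0.49, 0.78 and 0.80 on Days 4, 6 and 8, relative to 0 hr OGD -0.48, -0.34, 0.065 and -0.40 at 2, 4, 6 and 8 hr, relative to Day 6 -0.091, 0.042, 0.45 and -0.014 at 2, 4, 6 and 8 hr, and relative to Day 8 0.36, -0.11, 0.021, 0.43 and -0.035 at 0, 2, 4, 6 and 8 hr. With no normalization, the SLR of Ppia was relative to Day 2 0.39, 0.42 and 0.55 on Days 4, 6 and 8, relative to 0 hr OGD -1.87, -0.73, -1.0 and -2.27 at 2, 4, 6 and 8 hr, relative to Day 6 1.04, -0.83, 0.31, 0.034 and -1.23 at 0, 2, 4, 6 and 8 hr, and relative to Day 8 0.91, -0.96, 0.18, -0.094 and -1.36 at 0, 2, 4, 6 and 8 hr. That of Hsp90ab1 was relative to Day 2 0.64, 0.50 and 0.78 on Days 4, 6 and 8, relative to 0 hr OGD -1.10, -0.22, -0.74 and -1.36 at 2, 4, 6 and 8 hr, relative to Day 6 1.20, 0.095, 0.98, 0.46 and -0.16 at 0, 2, 4, 6 and 8 hr, and relative to Day 8 0.91, -0.19, 0.70, 0.18 and -0.44 at 0, 2, 4, 6 and 8 hr. With the arrays centred on their median, an alternative chosen after seeing the data, the SLR of Ppia was relative to Day 2 -0.31 and 0.45 on Days 4 and 6, relative to 0 hr OGD -1.05, -0.69, -0.22 and -1.16 at 2, 4, 6 and 8 hr, relative to Day 6 0.18, -0.87, -0.51 and -0.97 at 0, 2, 4 and 8 hr, and relative to Day 8 0.28, -0.41, 0.054 and -0.88 at 0, 4, 6 and 8 hr. That of Hsp90ab1 was relative to Day 2 -0.050, 0.52 and 0.58 on Days 4, 6 and 8, relative to 0 hr OGD -0.28, -0.17, 0.044 and -0.24 at 2, 4, 6 and 8 hr, relative to Day 6 0.057, 0.17, 0.39 and 0.10 at 2, 4, 6 and 8 hr, and relative to Day 8 -0.0052, 0.11, 0.32 and 0.039 at 2, 4, 6 and 8 hr. Taken relative to the 11 other reference genes on signals without quantile normalization, the SLR of Ppia was relative to Day 2 0.14 on Day 4, relative to 0 hr OGD -0.42, -0.059, -0.17 and -0.54 at 2, 4, 6 and 8 hr, relative to Day 6 0.040, -0.69, 0.0011 and -0.86 at 0, 2, 6 and 8 hr, and relative to Day 8 0.037, -0.43, -0.15, -0.10 and -0.73 at 0, 2, 4, 6 and 8 hr. That of Hsp90ab1 was relative to Day 2 0.40, 0.35 and 0.63 on Days 4, 6 and 8, relative to 0 hr OGD 0.35, 0.46, 0.097 and 0.38 at 2, 4, 6 and 8 hr, relative to Day 6 0.20, 0.24, 0.43 and 0.22 at 0, 2, 6 and 8 hr, and relative to Day 8 0.040, 0.34, 0.37, 0.16 and 0.19 at 0, 2, 4, 6 and 8 hr. The side of an SLR of 1 changed for 3 of the 34 with the 75th percentile, 8 with no normalization, 1 with median centring and 3 relative to the other reference genes. Ppia was below 0 hr OGD on 4 of 4 arrays in each of these settings, though at 4 hr by less than its SD relative to the other reference genes. Of 3 later days, 1 was below Day 2 for both genes with the 75th percentile and with median centring, against 0 with quantile normalization. Relative to the other reference genes, Hsp90ab1 was below 0 hr OGD on 0 of 4 arrays. Of the 8 comparisons of deprived arrays with Day 6 and Day 8, Hsp90ab1 was lower in 4 with the 75th percentile, 3 with no normalization and 1 with median centring, and Ppia in 5 with no normalization. The cause was not tested. The authors' processed values gave none, since the reference probes are not in that table. No paired analysis was possible because no condition has more than a single array, so that no replicate could be left out either. Both genes were bright, so signal over background did not limit them.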
